A study of Homo sapiens with 6 samples.

Results

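The genes of the SRSF, HNRNP, SNRP and SF3 families encode proteins that carry out and steer pre-mRNA splicing. They were chosen by name: every row of the expression table whose name begins with SRSF, HNRNP, SNRP, SF3A or SF3B, occurs once and bears neither a pseudogene suffix nor a hyphen. Of 27238 rows, 114 began with these letters, 59 were left out for a pseudogene suffix and 1 for a hyphen, and 54 remained: 12 SRSF, 21 HNRNP, 12 SNRP and 9 SF3 genes. The mRNA was that of QBC-939, a human cholangiocarcinoma (bile duct cancer) cell line. In 3 libraries the cells had received an shRNA against BMI1, and in 3 control libraries a scrambled shRNA (a scrambled siRNA in the design text), each for 48 h, with 3 separate transfections for each. All 6 libraries come from this 1 cell line, and the labels name no further agent or allele; whether more than 1 hairpin was used is not given in them. Values are FPKM, which divide the fragments of a gene by its length and by the size of the library.

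Splicing removes introns in a series of assemblies on the pre-mRNA. The small nuclear ribonucleoproteins (snRNPs) hold a short RNA within a ring of Sm proteins, encoded by most of the SNRP genes, and recognise the splice sites. SF3A and SF3B are the complexes with which the U2 snRNP grips the branch point. SR proteins (SRSF genes), which carry a tail rich in arginine and serine, bind exons and mostly favour their inclusion, while hnRNP proteins coat the transcript and often act against it. Many SRSF and HNRNP genes also regulate their own mRNA through exons whose inclusion leads to its decay.

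BMI1, the Polycomb protein targeted by the shRNA, measured 1.49, 1.19 and 2.65 FPKM in the Bmi1 shRNA libraries, against 6.65, 5.34 and 6.09 FPKM in the control libraries. It stood at 29.5% of control (limma, adjusted p = 0.00162; exact two-sided permutation test p = 0.1, the smallest that 3 against 3 libraries allow). The FPKM of a library summed to between 352800 and 360371 with Bmi1 shRNA, against 332910 to 341268 in control. Read depth is unknown, and counting errors could not be attached to single values. Among markers of bile duct epithelium KRT8, KRT18, KRT19 and EPCAM were high (mean 167 to 774 FPKM) and KRT7 low (2.77 FPKM), and the 10 markers together summed to 1567 to 1802 FPKM with Bmi1 shRNA, against 1820 to 1980 FPKM in control. Of 6 hepatocyte markers ALB and APOB had no row, and SERPINA1 and TTR, both called higher, held nearly all of a sum of 228 to 239 FPKM with Bmi1 shRNA, against 156 to 165 FPKM in control. LGALS4, called higher, held most of the sum of 6 intestinal markers, 571 to 600 FPKM against 415 to 421 FPKM. VIL1, the other tested intestinal marker, was called lower, at 16.9 to 19.5 FPKM with Bmi1 shRNA, against 19.9 to 21.7 FPKM in control. CDX1 had no row, and CDX2, CDH17 and MUC2 stayed at or under 0.101 FPKM. The 3 fibroblast markers with a row summed to 0.365 to 0.445 FPKM with Bmi1 shRNA, against 0.397 to 0.416 FPKM in control, and the 3 endothelial markers with a row to 0.0292 to 0.0576 FPKM, against 0.0725 to 0.119 FPKM. Of the immune cell markers PTPRC and CD3E had no row, while LYZ, which was not called, held nearly all of the sum, at 1510 to 1570 FPKM with Bmi1 shRNA, against 1416 to 1518 FPKM in control. CD68, the other tested marker of immune cells, was called lower, at 6.78 to 8.39 FPKM with Bmi1 shRNA, against 11.1 to 12.0 FPKM in control, and ITGAM stood at 0.198 to 0.406 FPKM, against 0.885 to 1.10 FPKM. The part of these shifts in the results was not tested. In bulk RNA, fewer cells of a type and less RNA per cell cannot be told apart.

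The splicing factor genes were nearly all active in these cells, and they moved in both directions. Of the 54 genes, 52 had a mean of at least 1 FPKM over the 6 libraries and were tested. SRSF12 was listed at 0 in 5 libraries and SNRPN, the Sm gene of neurons, stayed at or under 0.0924 FPKM. With Bmi1 shRNA 24 of the 52 rose, 14 fell and 14 did not pass. The test was limma on log2(FPKM + 1), and the threshold an adjusted p of 0.05 over all 11016 tested rows (Benjamini-Hochberg). Among all tested rows 28.6% were called higher and 28.5% lower, 57.1% in all. The median log2 fold change was 0.13 over the splicing factor genes and -0.02 over all tested rows. The groups did not overlap for 41 of the 52 genes, 24 higher and 17 lower, against 65.4% of all tested rows (32.3% higher and 33.1% lower). By family, 9 of 11 tested SNRP genes rose and 1 fell, 4 of 9 SF3 genes rose and 5 fell, 4 of 11 SRSF genes rose and 3 fell, and 7 of 21 HNRNP genes rose and 5 fell. The family medians on the log2 scale were 0.48 for SNRP, -0.32 for SF3, -0.02 for SRSF and 0.04 for HNRNP. The sign of the SRSF median turned with upper quartile scaling, and that of the HNRNP median with scaling to a common total and with quantile normalization. Whether the families differ from each other was not tested.

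**Figure D1:**
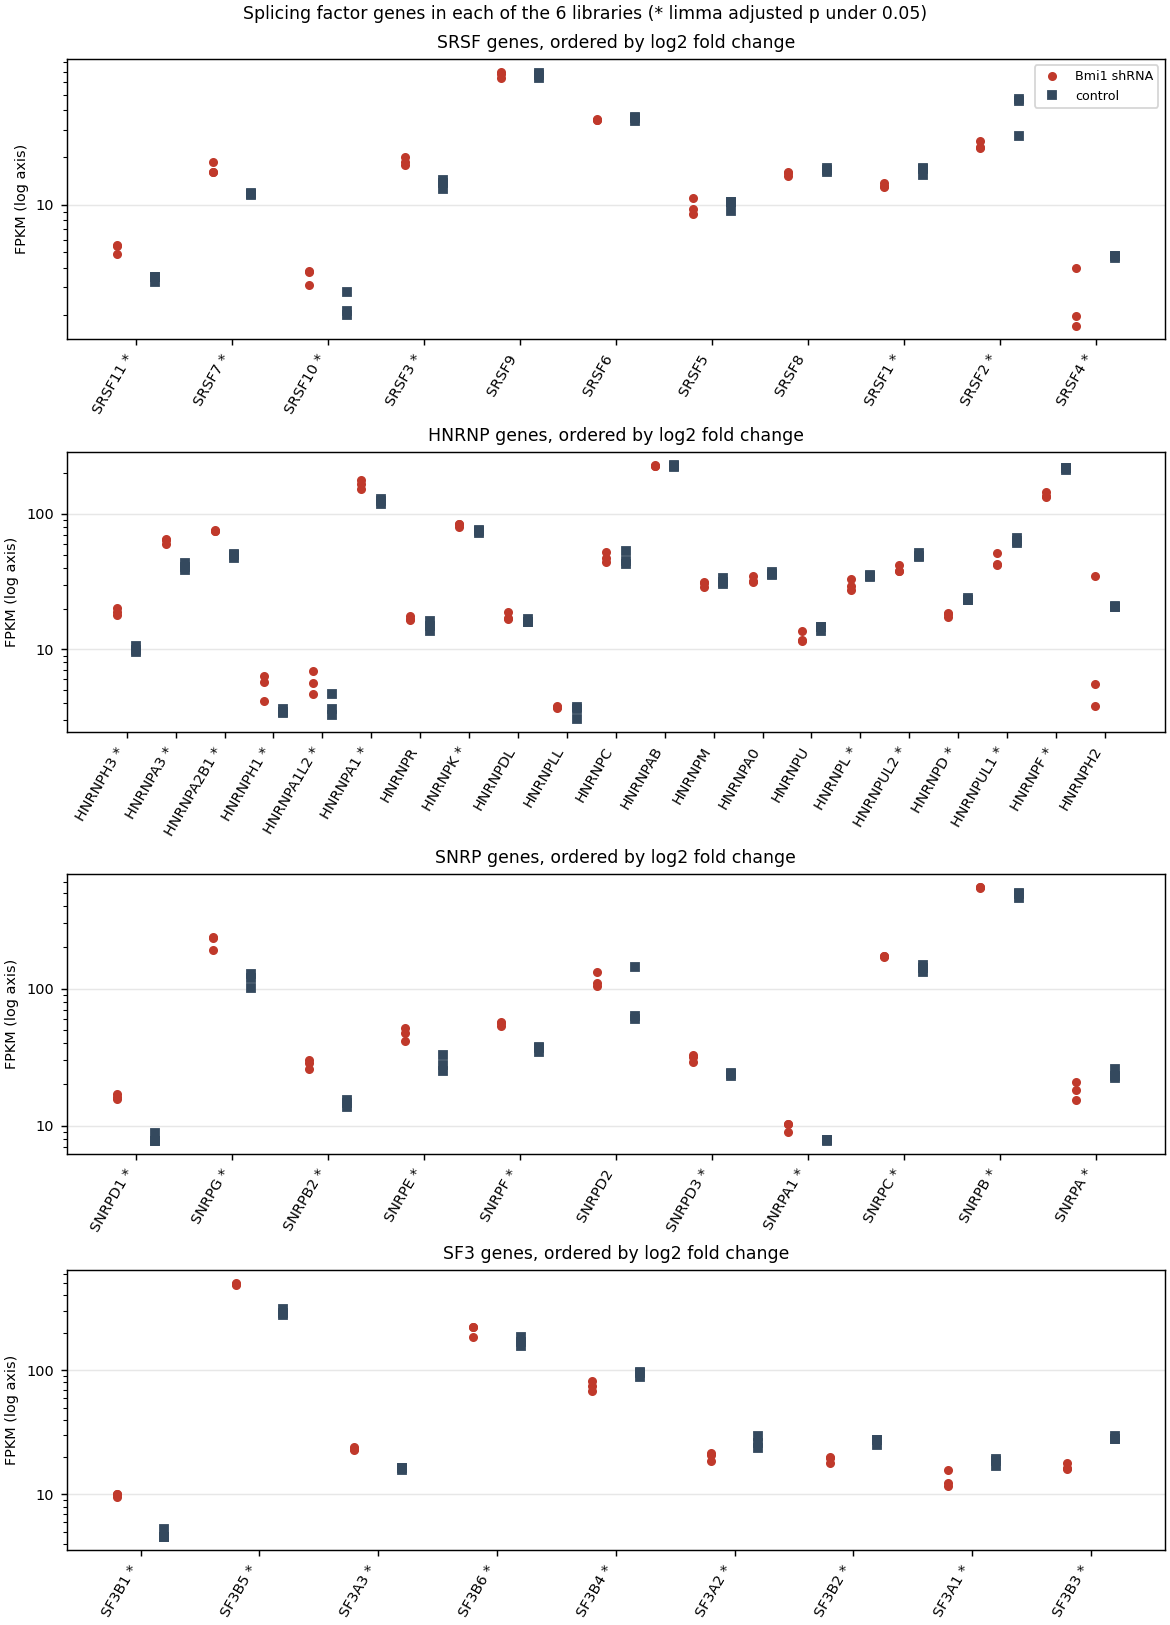
FPKM (log axis) of the 52 tested genes in each library, by family, with Bmi1 shRNA libraries as circles on the left and control libraries as squares on the right of each gene; a star marks an adjusted p under 0.05. In the SNRP panel all genes but SNRPA sit higher with Bmi1 shRNA on average, while the SF3 panel runs from SF3B1 (2.08-fold) to SF3B3 (0.589-fold).

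The direction of change went with base composition across the whole table, so the sequences of the genes are shown first. For each family the called gene with the largest rise and the called gene with the largest fall on the log2 scale are given by the last 120 bases of the coding sequence, stop codon included, of their longest protein-coding transcript in GENCODE 29, 5′ to 3′, with G and C in capitals. All of these bases are exonic and coding.
SNRPD1, rose: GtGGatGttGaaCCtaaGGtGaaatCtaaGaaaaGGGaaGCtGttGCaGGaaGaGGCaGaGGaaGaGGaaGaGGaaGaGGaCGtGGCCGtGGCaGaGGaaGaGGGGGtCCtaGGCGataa
SNRPA, fell: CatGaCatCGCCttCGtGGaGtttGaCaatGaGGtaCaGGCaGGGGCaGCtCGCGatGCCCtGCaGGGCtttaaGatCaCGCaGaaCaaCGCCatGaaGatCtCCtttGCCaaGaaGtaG
SF3B1, rose: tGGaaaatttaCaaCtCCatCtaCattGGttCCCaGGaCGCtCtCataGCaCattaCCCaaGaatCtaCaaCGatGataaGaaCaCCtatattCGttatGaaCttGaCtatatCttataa
SF3B3, fell: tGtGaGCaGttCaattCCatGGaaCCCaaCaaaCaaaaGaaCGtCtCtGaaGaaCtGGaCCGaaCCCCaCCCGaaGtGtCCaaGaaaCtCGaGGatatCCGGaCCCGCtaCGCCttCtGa
SRSF11, rose: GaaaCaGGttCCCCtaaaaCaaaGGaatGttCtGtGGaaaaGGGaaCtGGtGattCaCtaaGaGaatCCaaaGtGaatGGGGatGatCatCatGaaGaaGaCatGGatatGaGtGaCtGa
SRSF4, fell: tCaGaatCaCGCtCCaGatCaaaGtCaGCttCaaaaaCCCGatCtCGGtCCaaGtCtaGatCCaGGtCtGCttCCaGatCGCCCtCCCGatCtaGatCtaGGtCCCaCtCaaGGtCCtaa
HNRNPH3, rose: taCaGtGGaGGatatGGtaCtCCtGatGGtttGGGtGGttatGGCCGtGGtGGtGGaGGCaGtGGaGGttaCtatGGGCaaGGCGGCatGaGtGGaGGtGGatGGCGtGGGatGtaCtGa
HNRNPF, fell: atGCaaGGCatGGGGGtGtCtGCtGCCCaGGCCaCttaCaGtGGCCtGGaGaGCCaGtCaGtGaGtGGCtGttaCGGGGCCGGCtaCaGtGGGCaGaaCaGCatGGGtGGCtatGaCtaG
In each pair the gene that fell has the higher GC content over its whole coding sequence. It is 43.9% for SNRPD1 and 58.4% for SNRPA, 43.0% for SF3B1 and 49.2% for SF3B3, 47.6% for SRSF11 and 54.2% for SRSF4, and 46.0% for HNRNPH3 and 54.4% for HNRNPF. In GRCh38, SNRPD1 lies on the forward strand of chromosome 18 (21612267 to 21633524) and SNRPA on the forward strand of chromosome 19 (40750637 to 40765389). SF3B1 lies on the reverse strand of chromosome 2 (197389784 to 197435091) and SF3B3 on the forward strand of chromosome 16 (70523788 to 70577670). SRSF11 (70205682 to 70253052, forward) and SRSF4 (29147743 to 29181987, reverse) both lie on chromosome 1, and HNRNPH3 (68331174 to 68343191, forward) and HNRNPF (43385617 to 43409166, reverse) both on chromosome 10.

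Most genes of the Sm ring rose. Of its 7 tested members SNRPB, SNRPD1, SNRPD3, SNRPE, SNRPF and SNRPG rose and SNRPD2 did not pass, with a median log2 fold change of 0.59. With the trend in GC content and length removed 2 were higher, 1 lower and 4 not called (3, 0 and 4 with medians). Of all rows in those fits 19.1% were higher and 20.6% lower (21.9% and 24.9% with medians). SNRPD1 measured 15.7, 17.1 and 16.1 FPKM in the Bmi1 shRNA libraries, against 8.80, 7.78 and 7.75 FPKM in the control libraries. Every Bmi1 shRNA library lay well above every control library, at 2.01-fold on average (log2 fold change 0.93 ± 0.07 SE; adjusted p = 0.000305). SNRPG stood at 235, 238 and 190 FPKM with Bmi1 shRNA, against 128, 101 and 120 FPKM in control (1.91-fold; adjusted p = 0.00131). SNRPF stood at 55.8, 57.2 and 53.0 FPKM with Bmi1 shRNA, against 36.9, 34.7 and 37.7 FPKM in control (1.52-fold; adjusted p = 0.000533). Neither gene had overlapping groups, and the spread within a group was wider for SNRPG than for SNRPF. SNRPE averaged 47.1 ± 5.11 FPKM with Bmi1 shRNA and 28.6 ± 3.88 FPKM in control (SD, n = 3 each), and SNRPD3 averaged 31.2 ± 1.81 and 23.8 ± 0.614 FPKM. SNRPB, the most abundant gene of the 4 families, averaged 551 ± 4.90 FPKM with Bmi1 shRNA and 483 ± 21.2 FPKM in control, a 1.14-fold rise that was not called with scaling to a common total or with quantile normalization (adjusted p = 0.0986 and 0.507).

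The proteins specific to single snRNPs were divided. For the U2 snRNP, SNRPB2 measured 28.7, 29.9 and 26.1 FPKM with Bmi1 shRNA, against 15.5, 13.6 and 14.7 FPKM in control (1.93-fold; adjusted p = 0.000372). Its partner SNRPA1 rose less, to 9.86 ± 0.750 FPKM with Bmi1 shRNA, against 7.84 ± 0.0905 FPKM in control (SD, n = 3 each). For the U1 snRNP, SNRPC rose to 173 ± 1.68 FPKM with Bmi1 shRNA, against 141 ± 8.70 FPKM in control, which was not called with quantile normalization (adjusted p = 0.110). SNRPA, which binds a stem-loop of U1 RNA, was the only SNRP gene to fall, to 18.1 ± 2.62 FPKM with Bmi1 shRNA, against 23.8 ± 1.98 FPKM in control (adjusted p = 0.0264). The call of SNRPA ended without Bmi1 shRNA replicate 1 or 3 or control replicate 1 or 3 (adjusted p up to 0.0762), with no filter on low values (0.0655) and with upper quartile scaling (0.0532).

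Reads of several small genes may be shared with processed pseudogenes. The table holds 3 rows of SNRPG pseudogenes, which together summed to 60.8, 50.3 and 49.5 FPKM with Bmi1 shRNA, against 29.0, 35.4 and 38.4 FPKM in control, so these rows moved the same way as SNRPG. The 2 rows of SNRPE pseudogenes summed to 27.9, 29.7 and 26.6 FPKM with Bmi1 shRNA, against 16.2, 13.1 and 14.4 FPKM in control. How reads were divided between a gene and its copies is unknown, and the values of SNRPG and SNRPE are uncertain to that extent.

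All 9 SF3 genes were called, and subunits of the same complex went opposite ways. SF3B1, the large scaffold of SF3B that holds the branch point and is mutated in several blood cancers, measured 9.60, 10.2 and 10.1 FPKM with Bmi1 shRNA, against 4.55, 5.27 and 4.52 FPKM in control. It was the largest rise among the SF3 genes (2.08-fold; log2 fold change 0.92 ± 0.07 SE; adjusted p = 0.000316). SF3B3, the beta-propeller subunit that binds beside it, measured 16.3, 16.0 and 18.0 FPKM with Bmi1 shRNA, against 27.7, 29.8 and 27.9 FPKM in control, and so fell to 58.9% of control (log2 fold change -0.73 ± 0.07 SE; adjusted p = 0.000445). The groups lay apart for both genes. Chosen after these values were seen, the ratio of SF3B1 to SF3B3 FPKM was 0.590, 0.636 and 0.561 in the Bmi1 shRNA libraries, against 0.164, 0.177 and 0.162 in the control libraries.

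The small subunits of SF3B rose with SF3B1. SF3B5 measured 489, 504 and 491 FPKM with Bmi1 shRNA, against 313, 278 and 289 FPKM in control (1.69-fold; adjusted p = 0.000298). SF3B6, which contacts the branch point adenosine, measured 225, 223 and 184 FPKM with Bmi1 shRNA, against 185, 158 and 169 FPKM in control. Its groups overlapped, since Bmi1 shRNA replicate 3 lay just under control replicate 1, and the call (adjusted p = 0.0379) ended without Bmi1 shRNA replicate 1 or 2 or control replicate 2 or 3 (adjusted p up to 0.109). SF3B6 was not called either with no filter (0.0932), scaling to a common total (0.0780) or quantile normalization (0.276). The other SF3B subunits fell: SF3B2 to 19.2 ± 1.28 FPKM with Bmi1 shRNA, against 26.7 ± 1.32 FPKM in control, and SF3B4 to 74.8 ± 6.79 FPKM, against 93.3 ± 3.88 FPKM (SD, n = 3 each).

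Of the SF3A trimer, SF3A3 rose and both partners fell. SF3A3 measured 22.7, 24.1 and 23.0 FPKM with Bmi1 shRNA, against 16.4, 16.3 and 15.8 FPKM in control (1.44-fold; adjusted p = 0.000617). SF3A1 averaged 13.2 ± 2.12 FPKM with Bmi1 shRNA and 18.3 ± 1.16 FPKM in control, and SF3A2 averaged 20.4 ± 1.45 and 26.3 ± 2.99 FPKM (SD, n = 3 each; adjusted p = 0.0140 and 0.0194). The call of SF3A2 ended without Bmi1 shRNA replicate 1 (adjusted p = 0.0595).

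The SR protein genes went both ways. SRSF11, SRSF7, SRSF3 and SRSF10 rose, SRSF1, SRSF2 and SRSF4 fell, and SRSF5, SRSF6, SRSF8 and SRSF9 did not pass. SRSF11, an atypical member of the family, measured 5.51, 5.52 and 4.89 FPKM with Bmi1 shRNA, against 3.49, 3.23 and 3.49 FPKM in control (1.56-fold; adjusted p = 0.00128). SRSF7 measured 16.2, 18.6 and 16.2 FPKM with Bmi1 shRNA, against 11.7, 11.6 and 11.8 FPKM in control (1.45-fold; adjusted p = 0.00152). SRSF3, the smallest SR protein, which links splicing to mRNA export as SRSF7 does, measured 18.6, 20.2 and 17.8 FPKM with Bmi1 shRNA, against 14.3, 13.8 and 12.5 FPKM in control (1.39-fold; adjusted p = 0.00286). In these 3 genes no library of a group reached the range of the other group. SRSF10, which acts as a splicing repressor when dephosphorylated, measured 3.09, 3.77 and 3.78 FPKM with Bmi1 shRNA, against 2.80, 2.11 and 1.99 FPKM in control (adjusted p = 0.0136).

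SRSF1, the founding SR protein, measured 13.1, 13.0 and 13.8 FPKM with Bmi1 shRNA, against 17.0, 17.1 and 15.3 FPKM in control, and fell by 0.29 on the log2 scale (adjusted p = 0.00875). SRSF4 measured 1.96, 3.94 and 1.70 FPKM with Bmi1 shRNA, against 4.71, 4.61 and 4.73 FPKM in control. The control libraries lay close together, and Bmi1 shRNA replicate 2 lay nearer to them than to its own group. The fall of SRSF4 (adjusted p = 0.0272) was lost on leaving out any library but Bmi1 shRNA replicate 2 (adjusted p up to 0.0825) or with no filter (0.0757). SRSF2, a gene often mutated in myelodysplasia, measured 25.5, 23.0 and 23.2 FPKM with Bmi1 shRNA, against 45.5, 27.2 and 46.9 FPKM in control. Control replicate 2 lay close to the Bmi1 shRNA libraries, and the call (adjusted p = 0.0281) was lost on leaving out any library but that one (adjusted p up to 0.0811) and with no filter (0.0765). MFSD11 runs over SRSF2 on the other strand and shares 36.7% of its exon bases; it measured 2.81, 5.20 and 2.42 FPKM with Bmi1 shRNA, against 7.23, 7.01 and 4.27 FPKM in control. Without strand, reads from these genes cannot be told apart. The same holds for SRSF9, which shares 46.2% of its exon bases with GATC on the other strand. On the same strand SRSF1 shares 56.6% of its exon bases with AC015813.2, HNRNPUL2 shares 44.1% with the readthrough gene HNRNPUL2-BSCL2 and SNRPB shares 256 exon bases with AL049650.1, so the values of these genes are uncertain in part. Smaller overlaps add to this. On the other strand lie PLEKHJ1 (12.7% of SF3A2), GUCD1 (12.6% of SNRPD3), COX20 (15.6% of HNRNPU) and CBX3 (3.97% of HNRNPA2B1). GGT1 shares 12.0% of SNRPD3 on the same strand. CBX3 stood at 33.6 to 36.0 FPKM with Bmi1 shRNA, against 13.9 to 15.6 FPKM in control.

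The SR genes that did not pass lay close to their control values. SRSF9, the most abundant SR gene, averaged 66.8 ± 3.07 FPKM with Bmi1 shRNA and 66.1 ± 2.17 FPKM in control, and SRSF6 averaged 34.7 ± 0.313 and 35.1 ± 0.942 FPKM (SD, n = 3 each). SRSF8 averaged 15.7 ± 0.518 FPKM with Bmi1 shRNA and 16.6 ± 0.524 FPKM in control, and SRSF5 averaged 9.69 ± 1.15 and 10.0 ± 0.723 FPKM. The standard errors of their log2 fold changes, from 0.05 for SRSF6 to 0.10 for SRSF5, set the size of change that could have been seen.

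Among the hnRNP genes the close relatives of the H/F group moved apart. HNRNPH3 measured 18.0, 20.1 and 18.8 FPKM with Bmi1 shRNA, against 10.7, 9.93 and 9.49 FPKM in control (1.89-fold; log2 fold change 0.86 ± 0.07 SE; adjusted p = 0.000332). HNRNPF, which like its relatives binds runs of G, measured 145, 133 and 135 FPKM with Bmi1 shRNA, against 211, 219 and 217 FPKM in control (0.638-fold; log2 fold change -0.65 ± 0.05 SE; adjusted p = 0.000332). The libraries of the groups lay far apart in both. HNRNPH1 averaged 5.42 ± 1.11 FPKM with Bmi1 shRNA and 3.50 ± 0.129 FPKM in control (SD, n = 3 each; adjusted p = 0.0170), a call that ended without Bmi1 shRNA replicate 2 or control replicate 3 (adjusted p up to 0.0546). HNRNPH2 measured 34.8, 5.52 and 3.83 FPKM with Bmi1 shRNA, against 20.6, 20.7 and 20.4 FPKM in control, and did not pass (log2 fold change -1.05 ± 0.71 SE; adjusted p = 0.243). The annotated readthrough gene RPL36A-HNRNPH2 was listed at 0, 18.8 and 21.3 FPKM with Bmi1 shRNA, against 0, 0.798 and 0 FPKM in control, so it was high in the 2 libraries in which HNRNPH2 was low. Without Bmi1 shRNA replicate 1 HNRNPH2 was called lower (log2 fold change -1.94; adjusted p = 0.00193). These genes share 16.3% of the exon bases of HNRNPH2, and how their reads were divided is unknown, so no direction can be drawn for HNRNPH2.

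**Figure D2:**
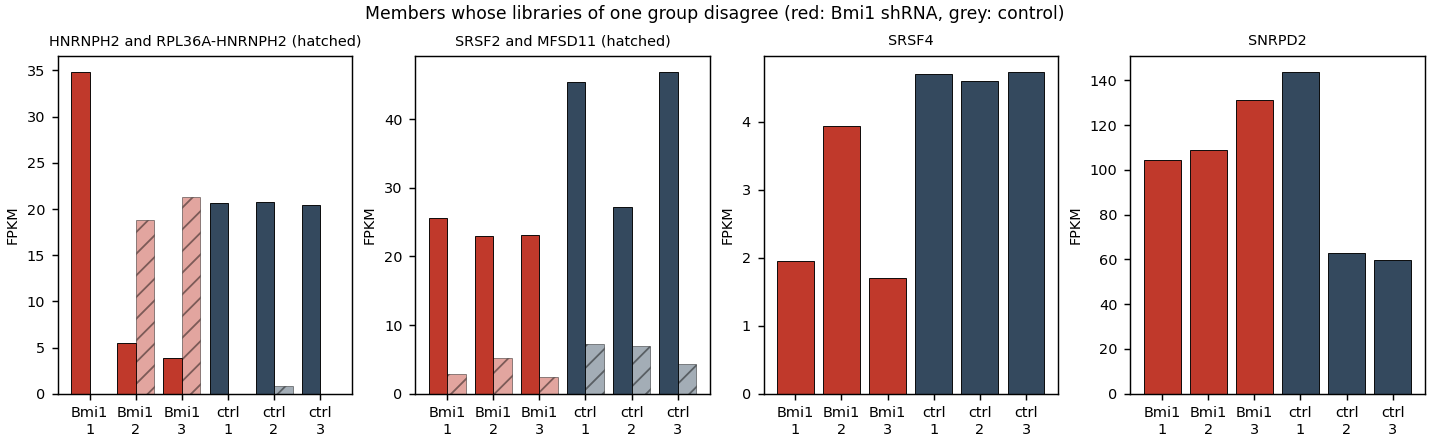
FPKM in each library of 4 splicing factor genes whose libraries of a group disagree, with an overlapping gene hatched beside HNRNPH2 and SRSF2; Bmi1 shRNA libraries are on the left of each panel and control libraries on the right. HNRNPH2 and the readthrough gene RPL36A-HNRNPH2 take opposite places in the Bmi1 shRNA libraries (5.52 against 18.8 FPKM in replicate 2), and SNRPD2 is high in control replicate 1 (144 FPKM).

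SNRPD2, the Sm gene that did not pass, measured 104, 109 and 131 FPKM with Bmi1 shRNA, against 144, 62.7 and 59.9 FPKM in control (adjusted p = 0.250). Control replicate 1 lay above all Bmi1 shRNA libraries, and without it the gene was called higher (log2 fold change 0.89; adjusted p = 0.00305). SNRPD2, HNRNPH2 and SRSF2 are given in every library because of values already seen.

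Of the A/B group of hnRNP genes HNRNPA2B1, HNRNPA3 and HNRNPA1 rose, and their fold changes were smaller with the GC and length trend taken out. HNRNPA2B1, which sorts and reads mRNAs as well as acting in splicing, measured 74.3, 75.5 and 74.6 FPKM with Bmi1 shRNA, against 49.8, 50.2 and 47.0 FPKM in control (1.53-fold; adjusted p = 0.000348). HNRNPA3 measured 59.6, 64.5 and 65.0 FPKM with Bmi1 shRNA, against 43.1, 40.3 and 38.7 FPKM in control (1.55-fold; adjusted p = 0.000617). HNRNPA1, the classic antagonist of SRSF1 at splice sites, measured 152, 177 and 167 FPKM with Bmi1 shRNA, against 125, 130 and 118 FPKM in control (1.33-fold; adjusted p = 0.00336). No library of these genes crossed into the other group. With the trend removed by the longest transcript or by medians the log2 fold change was 0.17 or 0.32 for HNRNPA2B1 (0.60 as deposited), 0.23 or 0.36 for HNRNPA3 (0.62 as deposited) and 0.26 or 0.17 for HNRNPA1 (0.41 as deposited), not called for HNRNPA1 with medians (adjusted p = 0.0745). HNRNPA0 did not pass, nor did HNRNPAB, which is set beside it here by its symbol alone. HNRNPA0 averaged 32.5 ± 1.93 FPKM with Bmi1 shRNA and 36.1 ± 0.917 FPKM in control, and HNRNPAB averaged 225 ± 2.60 and 225 ± 4.23 FPKM (SD, n = 3 each).

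HNRNPA1L2, a gene without introns copied from HNRNPA1, averaged 5.75 ± 1.15 FPKM with Bmi1 shRNA and 3.86 ± 0.732 FPKM in control (SD, n = 3 each). Its call (adjusted p = 0.0387) ended without Bmi1 shRNA replicate 1 or 3 or control replicate 1 or 3 (adjusted p up to 0.107). As a near copy of HNRNPA1 it can take reads that fit both genes, and its values are uncertain to that extent. The table also holds 24 rows of HNRNPA1 pseudogenes, which summed to 40.8, 49.1 and 46.5 FPKM with Bmi1 shRNA, against 28.7, 30.6 and 30.5 FPKM in control. Rows of HNRNPA3 pseudogenes, 10 in number, summed to 10.6 to 13.2 FPKM with Bmi1 shRNA, against 6.09 to 6.51 FPKM in control.

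Among the remaining hnRNP genes HNRNPD, HNRNPUL1, HNRNPUL2 and HNRNPL fell and HNRNPK rose. HNRNPD, also known as AUF1, which binds AU-rich elements and speeds mRNA decay, measured 18.4, 18.3 and 17.2 FPKM with Bmi1 shRNA, against 23.9, 23.3 and 23.2 FPKM in control (0.766-fold; adjusted p = 0.00177). Its paralog HNRNPDL averaged 17.6 ± 1.12 FPKM with Bmi1 shRNA and 16.1 ± 0.434 FPKM in control and did not pass. HNRNPUL1 fell to 45.5 ± 5.37 FPKM with Bmi1 shRNA, against 63.7 ± 2.55 FPKM in control, and HNRNPUL2 to 39.1 ± 2.50 FPKM, against 49.6 ± 1.98 FPKM (SD, n = 3 each; adjusted p = 0.00448 and 0.00515). HNRNPU, a scaffold protein of chromatin and nuclear RNA, had the same sign but did not pass (log2 fold change -0.20; adjusted p = 0.0603).

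HNRNPL, which binds CA repeats, averaged 29.9 ± 2.71 FPKM with Bmi1 shRNA and 34.9 ± 0.614 FPKM in control (SD, n = 3 each; adjusted p = 0.0402). HNRNPK, which binds runs of C, measured 84.6, 79.6 and 83.5 FPKM with Bmi1 shRNA, against 76.3, 74.9 and 72.0 FPKM in control (1.11-fold; adjusted p = 0.0439), and its groups did not overlap. These small changes were the least steady of the family. The call of HNRNPL was lost on leaving out any library but Bmi1 shRNA replicate 3 (adjusted p up to 0.106), and that of HNRNPK on leaving out any but Bmi1 shRNA replicate 2 (up to 0.144). HNRNPK was also not called with no filter, no trend in the variance, scaling to a common total or quantile normalization (0.0587 to 0.464), nor HNRNPL with no filter or upper quartile scaling (0.0754 and 0.0696), nor HNRNPA1L2 with no filter or scaling to a common total (0.0978 and 0.0691). HNRNPC, HNRNPM, HNRNPR and HNRNPLL did not pass, with log2 fold changes of 0.04, -0.06, 0.17 and 0.10. Some genes that did not pass were called under another scaling: HNRNPA0 and HNRNPU lower with a common total (adjusted p = 0.0245 and 0.0237), HNRNPA0 and HNRNPAB lower with quantile normalization (0.0323 and 0.00713) and HNRNPR higher with upper quartile scaling (0.0376).

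The direction of the splicing factor genes went with the GC content of their transcripts, as it did over the whole table. Spearman's rho between the log2 fold change and GC content was -0.487 over the 52 genes and -0.474 over 10206 tested rows with a known transcript. These are descriptions across genes that share the same 6 libraries. Of the 26 genes at or under the median GC content of the set (44.2%), 16 rose and 2 fell, and of the 26 above it 8 rose and 12 fell. All tested rows ran the same way: in bins of GC content their median log2 fold change went from 0.52 at 36.6% GC to 0.14 at 44.1%. From 46.7% GC upward it was negative in every bin. The shares called among all rows were not counted by GC content. The tested genes of the 4 families had a median GC content of 44.2%, against 50.4% over all tested rows.

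**Figure D3:**
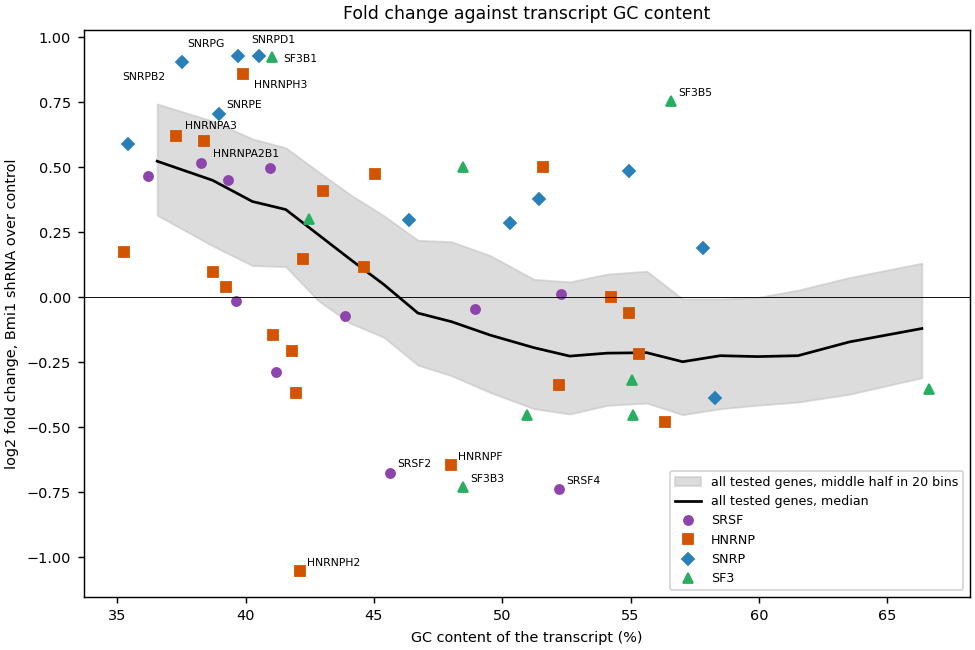
Log2 fold change (Bmi1 shRNA over control) of the 52 genes against the GC content of their longest protein-coding transcript, with the median and interquartile range of all tested rows in bins of GC content. SF3B5 (56.6% GC, 0.75) lies far above the line for all rows, and HNRNPF (48.0% GC, -0.65) and SF3B3 (48.5% GC, -0.73) far below.

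Removal of the trend with GC content and length from each library left a smaller set. With GC content and length of the longest coding transcript 11 of the 52 genes were higher and 14 lower, against 19.1% and 20.6% of all rows in that fit (39.8% in all), so that the share of higher among called genes was 44.0% in place of 63.2%. With medians over a gene's transcripts 13 were higher and 16 lower, against 21.9% and 24.9% of all rows (46.8% in all). In all 3 fits 9 genes were called higher, namely SNRPD1, SNRPD3, SNRPB2, SF3B1, SF3B5, SF3A3, HNRNPA2B1, HNRNPA3 and HNRNPH3, and 5 were called lower, namely SF3B3, SF3A2, SRSF1, HNRNPF and HNRNPD. The share of all rows called the same way in all 3 fits was not counted. Whether these numbers exceed it is therefore unknown. For SF3B1 the log2 fold change was 0.73 after removal with the longest transcript and 0.36 with medians, and for SF3B3 it was -0.41 and -0.82. SNRPD1 had 0.66 and 0.45, HNRNPF -0.54 and -0.50, and SRSF1 -0.61 and -0.24. Real changes that follow base composition or transcript length are removed with the trend.

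Other genes lost their call or turned. The rises of SRSF10, SRSF11 and SRSF7 were called in neither version, with log2 fold changes from -0.057 to 0.13, and that of SRSF3 in 1 of them (0.08, and 0.31 with medians; adjusted p = 0.342 and 0.0124). SNRPG (0.11 and 0.32), SNRPE (-0.19 and 0.13), SNRPA1 (-0.095 and 0.0046) and HNRNPA1L2 (0.08 and 0.30) were called in neither. SNRPF and SF3B6 were called lower with the longest transcript (log2 fold change -0.30 and -0.43; adjusted p = 0.00319 and 0.00332) and in neither direction with medians (0.05 and -0.09; adjusted p = 0.470 and 0.475). HNRNPK was called lower with medians alone (-0.25; adjusted p = 0.00808). SNRPB and SNRPC were called with medians alone, at 0.37 and 0.39, and HNRNPA1 and HNRNPH1 with the longest transcript alone, at 0.26 and 0.76. Among the falls, HNRNPL, SF3B4 and SNRPA were called in neither version, SRSF2 with the longest transcript alone, and SRSF4, SF3A1, SF3B2, HNRNPUL1 and HNRNPUL2 with medians alone. HNRNPA0, HNRNPLL, HNRNPU and SRSF8, not called before, were called lower in both versions, HNRNPR and SRSF6 with the longest transcript alone and SRSF5 with medians alone, where HNRNPAB was called higher (0.21).

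**Figure D4:**
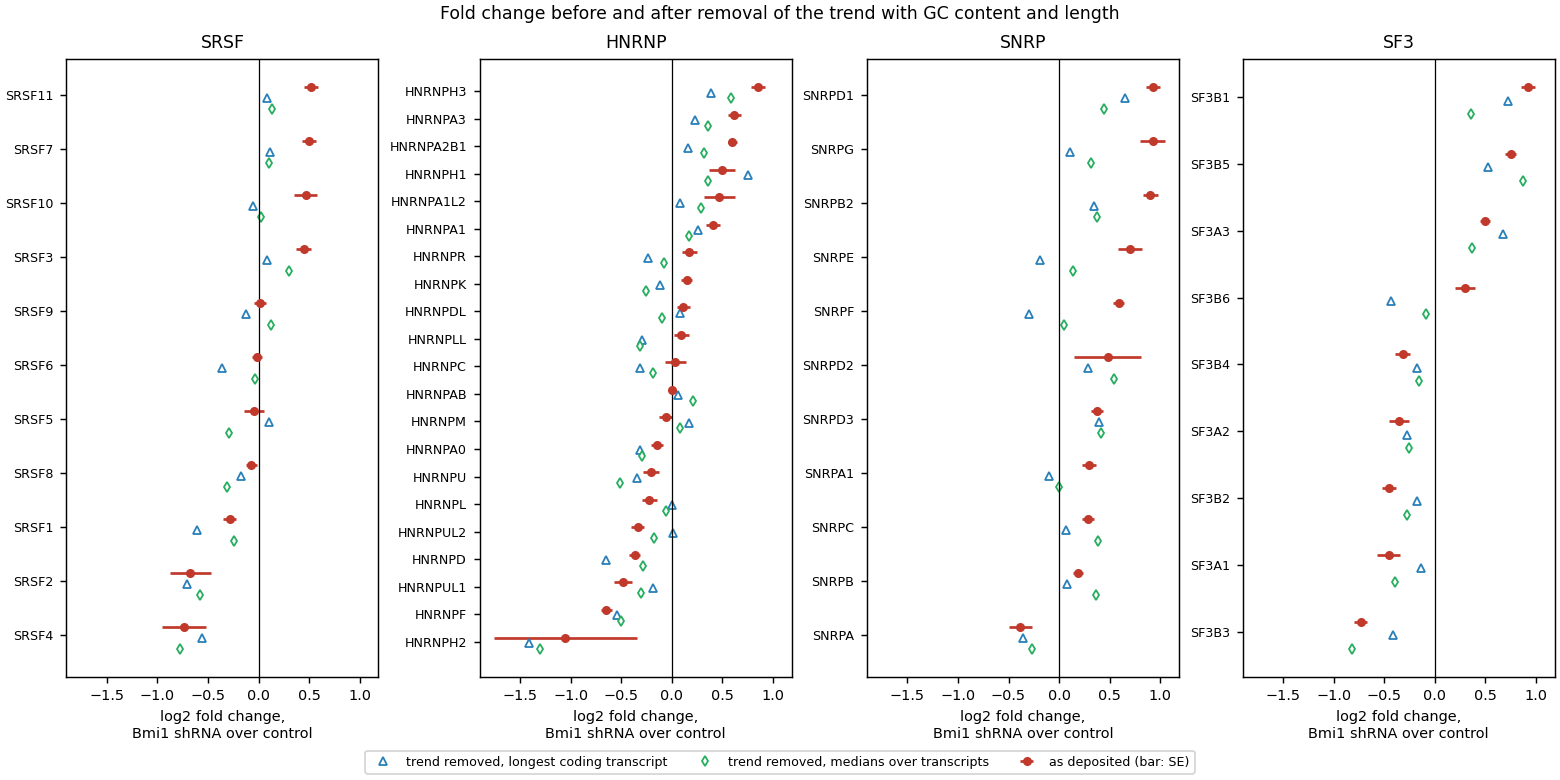
Log2 fold change (Bmi1 shRNA over control) of the tested genes of each family, as deposited (red circles, bars are the standard error) and after the trend with GC content and length was removed with the longest coding transcript (triangles) or medians over transcripts (diamonds). SF3B1, SF3B5 and SNRPD1 stay right of 0 in all fits and HNRNPF and SF3B3 left of it, while SNRPF (0.59 as deposited) falls on both sides.

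The promoters were searched for short motifs, which the choice of genes did not use. For 50 of the 54 genes RefSeq (GRCh38.p14) gives a promoter, and the 250 bases before the start were searched on both strands. The letters CCGGAAG, the core bound by ETS factors, were present in 18 of the 50 (36.0%) and absent from the others, against 8.52% of 35116 promoters of all gene types. The median GC content of these windows was also higher, 62.4% for the splicing factor genes, against 58.0% for all promoters, and its part in the difference was not tested. Among the 18 were SNRPB, SNRPE, SNRPG and SNRPD2 of the Sm ring and all genes of the SF3A trimer, of which SF3A3 rose and SF3A1 and SF3A2 fell. The letters CCAAT were present in 20 (40.0%, against 32.0% of all), CACGTG in 7 (14.0%, against 6.34%) and TATAAA in 6 (12.0%, against 10.7%). The NRF1 motif, searched likewise, was in none of the 50 (1.03% of all). A match is a description of these letters and shows no binding.

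Of 157 other genes of the splicing machinery and of mRNA surveillance, 146 were tested, 58 rose (39.7%) and 50 fell (34.2%), at a median log2 fold change of 0.05. Over all tested rows 28.6% were called higher and 28.5% lower, the shares against which the counts of each list stand. The genes of the LSM ring, which binds U6 RNA, rose in 6 of 7 cases and none fell, with a median of 0.55. LSM7 stood at 209 ± 7.36 FPKM with Bmi1 shRNA and 110 ± 8.57 FPKM in control, and LSM5 at 7.80 ± 0.705 and 3.85 ± 0.327 FPKM (SD, n = 3 each). Genes of the Prp19 complex and the catalytic steps rose in 16 of 25 cases and fell in 7. Among them PRPF18 and CWC27 rose 2.29-fold and 2.34-fold, while the ubiquitin ligase PRPF19 itself fell to 76.3 ± 5.44 FPKM with Bmi1 shRNA, against 116 ± 2.36 FPKM in control, and the helicase DHX16 fell to 0.661 of control. Of 8 genes that act with the U1 snRNP 5 rose and 1 fell: LUC7L3 rose 1.89-fold, and SNRNP70, the largest U1 protein, fell to 25.2 ± 1.85 FPKM, against 34.7 ± 1.33 FPKM. Of 7 minor spliceosome genes 4 rose and 1 fell, with ZMAT5 at 1.46-fold, SNRNP25 at 1.35-fold and PDCD7 at 0.781-fold.

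Genes of the U4/U6.U5 tri-snRNP fell in 11 of 18 cases and rose in 3, with a median of -0.21. PRPF6, which bridges its parts, stood at 29.8 ± 2.14 FPKM with Bmi1 shRNA and 46.9 ± 1.49 FPKM in control, and the GTPase EFTUD2 at 9.38 ± 0.220 and 13.9 ± 0.679 FPKM (SD, n = 3 each). PPIH and PRPF4B rose 1.33-fold and 1.76-fold. Of 13 factors of the branch point and the 3′ splice site 5 rose and 3 fell: HTATSF1, which binds SF3B1, rose 2.15-fold and the helicase DDX46 2.02-fold, while U2AF2, which binds the polypyrimidine tract, fell to 0.715 of control and CHERP to 0.648. Of 8 exon junction complex genes 4 rose and 3 fell, with MAGOH at 1.54-fold, SAP18 at 1.43-fold, ACIN1 at 0.723-fold and CASC3 at 0.764-fold.

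Of 10 genes for SR-related proteins 5 rose and 3 fell. PNN and RBM39 rose 1.54-fold and 1.53-fold, and SRRM2, a scaffold of nuclear speckles, fell to 11.0 ± 4.50 FPKM with Bmi1 shRNA, against 24.1 ± 2.62 FPKM in control (SD, n = 3 each). THRAP3 fell to 0.774 of control, a call that ended without Bmi1 shRNA replicate 1 or 2 or control replicate 2 (adjusted p up to 0.0659). Of 5 kinases that phosphorylate SR proteins 3 rose and 1 fell: CLK1 rose 2.41-fold and SRPK1 1.42-fold, and CLK3 fell to 0.789 of control, not called without Bmi1 shRNA replicate 1 or 2 or control replicate 2 or 3 (adjusted p up to 0.0715). Of 14 hnRNP proteins with other symbols 2 rose and 7 fell, with SYNCRIP at 1.66-fold, KHSRP at 0.631-fold and EWSR1 at 0.728-fold. PTBP3, at 1.21-fold (adjusted p = 0.0499), was lost on leaving out any library but control replicate 1 (adjusted p up to 0.144).

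Of 9 tissue regulators of splicing 1 rose and 5 fell: MBNL1 rose 1.98-fold, and RBM47 and the epithelial regulator ESRP2 fell to 0.663 and 0.634 of control. Of 13 genes for the SMN complex and Sm protein methylation, which load the Sm ring onto snRNA, 2 rose, 3 fell and 8 did not pass. GEMIN2 rose 1.88-fold and CLNS1A 1.35-fold, while GEMIN4 stood at 0.561 and the methyltransferase PRMT5 at 0.751 of control. Of 9 genes of nonsense-mediated decay 2 rose and 5 fell: UPF3B and UPF2 rose 1.93-fold and 1.70-fold, and SMG6 and SMG5 fell to 0.607 and 0.684 of control.

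Removal of the trend with GC content and length took many of these calls away. With the longest coding transcript 36 of the 146 genes were higher and 29 lower, against 19.1% and 20.6% of all rows in that fit, and with medians 33 were higher and 42 lower, against 21.9% and 24.9%. Higher and lower counts with the longest transcript were 4 and 0 for the LSM ring, 9 and 4 for the Prp19 complex and catalytic steps, 3 and 3 for U1 factors, 3 and 2 for the minor spliceosome and 1 and 6 for the tri-snRNP. They were 4 and 2 for branch point factors, 1 and 0 for the exon junction complex, 4 and 0 for SR-related proteins, 2 and 0 for the kinases and 2 and 5 for hnRNP proteins with other symbols. They were 1 and 3 for tissue regulators, 0 and 2 for the SMN complex and 2 and 2 for nonsense-mediated decay. With medians the counts were 5 and 0 for the LSM ring, 2 and 9 for the tri-snRNP, 11 and 6 for the Prp19 complex and catalytic steps, 1 and 2 for the exon junction complex, 1 and 3 for SR-related proteins and 1 and 4 for the SMN complex. Of the genes named above LSM5, PRPF4B, PDCD7, SAP18, MAGOH, ACIN1, CASC3, SRRM2, THRAP3, CLK3, MBNL1, ESRP2, CLNS1A, GEMIN4 and SMG6 were no longer called with the longest transcript, and PPIH, PTBP3 and GEMIN2 changed sign without being called. With medians LUC7L3, PRPF4B, SAP18, MAGOH, RBM39, THRAP3, SRPK1, CLK3, MBNL1, GEMIN2 and CLNS1A were no longer called, and PNN and PTBP3 changed sign without being called.

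**Figure D5:**
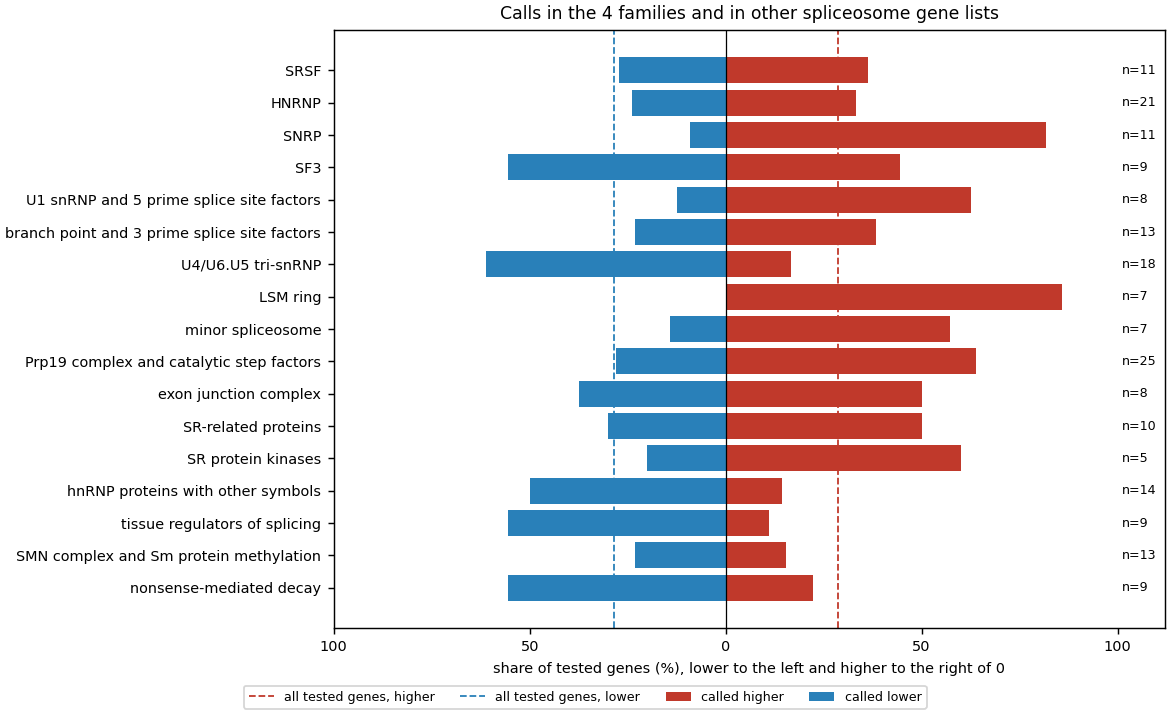
Share of tested genes called higher (right, red) and lower (left, blue) with Bmi1 shRNA in the 4 families and in 13 lists of other splicing genes, with the number tested at the right and dashed lines for all tested rows (28.6% higher, 28.5% lower). The SNRP family and the LSM ring reach furthest to the right, and the U4/U6.U5 tri-snRNP furthest to the left.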

How the data were processed

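Poly(A) RNA of the 6 libraries was sequenced on an Illumina NovaSeq, per the labels' protocols. The authors deposited 1 table of FPKM values, and the tools named in the submitters' processing notes are Bowtie 0.12.2, HISAT2 2.0 and StringTie 1.3.0, with no role given, and a mouse build, mm8, although the organism is human. The build, the annotation and the use of strand are therefore not settled. The extraction text also names adipose material. The 6 columns, named Sc or Sh and numbered, were matched to the control and Bmi1 shRNA titles by these letters and numbers. No steps of whole reads were found: at most 0.653% of 3827 low rows shared a ratio to control replicate 1 (equal to 3 decimals). No count test was run, and the number of libraries limits precision.

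Rows averaging 1 FPKM or more over the 6 libraries were fitted as log2(FPKM + 1) by limma 3.58.1 (R 4.3.3), with group as the sole term, eBayes with a trend, and Benjamini-Hochberg adjustment over all tested rows. Fold changes on that scale understate those of low genes; other folds are ratios of mean FPKM. The steps were tested on simulated data. GC content and length came from GENCODE 29 transcripts (GRCh38), known for 92.6% of tested rows, and the trend was removed from each library by natural splines with 5 degrees of freedom each. The alternatives were the pseudocount, the filter, scaling, this trend, the variance prior, the replicate block and each library left out. SUGP1 and QKI had no row and the name MATR3 was repeated, so these were not analysed here. A few genes and sequences that these rules would name are not reported here. Every gene of the 4 families is named. Values in every library are given for BMI1, the 6 genes with the smallest p in SRSF and in HNRNP, the 4 in SNRP and in SF3, and genes called both before and after removal of the trend with opposite signs. Of each further list up to 2 called genes with the smallest p in each direction are named. The genes and lists were chosen with earlier results of these data known. That the libraries came from separate cultures rests on the design text, and p-values measure the spread between these libraries.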

Additional observations from a re-analysis of the deposited data

How the results depend on the processing

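With the trend in GC content and length removed by the longest coding transcript, 11 members were called higher. By family 0 SRSF and 3 SNRP genes were higher and 3 SF3 genes lower, and of other spliceosome genes 36 were higher and 29 lower. Of all tested genes 1953 were higher. The medians were -0.12 for SRSF, 0.00074 for HNRNP, 0.076 for SNRP and -0.17 for SF3. The sign turned for HNRNPC (-0.32), HNRNPK (-0.12), HNRNPL (0.00074), HNRNPLL (-0.30), HNRNPM (0.17), HNRNPR (-0.24), HNRNPUL2 (0.0087), SF3B6 (-0.43), SNRPA1 (-0.095), SNRPE (-0.19), SNRPF (-0.30), SRSF10 (-0.057), SRSF5 (0.10), SRSF9 (-0.12), PPIH (-0.00057), PTBP3 (-0.13) and GEMIN2 (-0.10). With the replicate block as well these medians and fold changes were the same values, HNRNPA2B1 and HNRNPA3 were no longer called (adjusted p = 0.0573 and 0.0581), and 9 members were higher, with 0 SRSF, 3 HNRNP and 3 SNRP genes higher and 3 SF3 genes lower. Other spliceosome genes then numbered 26 higher and 19 lower, and all tested genes 1569 higher and 1571 lower. With medians over transcripts 13 members were higher, with 1 SRSF, 4 HNRNP and 5 SNRP genes higher, 8 HNRNP and 0 SNRP genes lower and 33 other spliceosome genes higher. Of all 10206 rows in that fit 2235 were higher and 2543 lower. The medians were -0.10 for HNRNP, 0.37 for SNRP and -0.16 for SF3, and the sign turned for HNRNPC (-0.18), HNRNPDL (-0.10), HNRNPK (-0.25), HNRNPLL (-0.31), HNRNPM (0.086), HNRNPR (-0.076), SF3B6 (-0.086), PNN (-0.013) and PTBP3 (-0.12).

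With a filter of 5 FPKM, by construction with fewer genes tested, 2 SRSF genes and 32 other spliceosome genes were higher, 1631 and 1847 of all 5641 tested rows were higher and lower, and the HNRNP median was -0.030. With no filter 1 SRSF and 0 SNRP genes were lower, and of all 27238 rows 3439 were higher and 2942 lower. Upper quartile scaling gave 0 SNRP genes lower and medians of 0.026 for SRSF and 0.081 for HNRNP, with SRSF6 at 0.026. Of all 11016 tested rows 3389 were higher and 2838 lower with this scaling. Scaling to a common total gave medians of -0.11 for SRSF, -0.051 for HNRNP and 0.40 for SNRP, with HNRNPAB at -0.088, HNRNPC at -0.051 and SRSF9 at -0.075. Quantile normalization gave medians of -0.052 for HNRNP and 0.36 for SNRP, with HNRNPAB at -0.20 (called), HNRNPC at -0.052, SNRPB at -0.035 and SRSF9 at -0.10. An alternative chosen after seeing the data left out members with overlapping exons or with a pseudogene row averaging at least 1 FPKM. It took out most HNRNP and SNRP genes, so its counts stand against fewer genes than the 52 tested. Of the members left, 13 were higher and 3 lower. By family 1 HNRNP and 4 SNRP genes were higher, and 0 SRSF, 1 HNRNP, 0 SNRP and 2 SF3 genes lower. Over all tested rows, not reduced in this way, 28.6% were called higher and 28.5% lower. The number of tested members left was not counted, so no share of them can be set beside these. The cause of the shifts with scaling was not tested.

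Leaving out 1 library at a time, SRSF genes called lower ranged from 1 to 2, HNRNP genes called higher from 4 to 7 and SNRP genes called lower from 0 to 1. Of all 11016 tested rows 2724 to 2982 were called higher and 2484 to 3140 lower. The medians ranged from -0.019 to 0.011 for SRSF, from -0.0083 to 0.10 for HNRNP and from 0.36 to 0.60 for SNRP, and the fold changes from -0.0100 to 0.016 for HNRNPAB, -0.028 to 0.13 for HNRNPC, -0.13 to 0.021 for SRSF5, -0.036 to 0.0012 for SRSF6 and -0.017 to 0.049 for SRSF9. Of 38 called members 9 lost the call without some library, and the share of all called rows that lost it was not counted. Same-numbered libraries showed no clear shared deviation from their group means (correlations of 0.0037, -0.079 and -0.023 for numbers 1, 2 and 3). Those of different numbers ranged from -0.076 to 0.10. With 3 libraries in a group these values cannot settle whether the libraries were paired by design. With the replicate block 22 members were higher and 13 lower, and HNRNPA1L2, HNRNPK and HNRNPL were not called. Of all 11016 tested rows 2870 were higher and 2788 lower in that fit. The pseudocount of 0.1 changed no call of a member, and BMI1 stayed lower and called in each alternative that tested it (log2 fold change from -1.97 to -1.22).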
